A study of Mus musculus with 4 samples.

Results

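The ADAM metalloprotease family was taken as the mouse protein-coding genes of GENCODE M21 (build mm10) whose symbol starts with Adam and a number. The related Adamts genes were not included. The rule gave 33 genes of 21951 protein-coding genes. For each of them, all IGF2BP3 eCLIP-seq clusters were collected whose centre lay in the span of the gene on the same strand. These were 688 of 337234 clusters in replicate 1 and 516 of 216354 clusters in replicate 2, and they fell in 31 of the 33 genes.

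The RNA-binding protein IGF2BP3 was mapped by eCLIP-seq, in which UV light crosslinks proteins to RNA in the tissue, an antibody pulls down the protein with its RNA fragments, and the fragments are sequenced. Both groups of libraries came from whole testes of wild type C57BL/6 mice at 8 weeks of age, a mixture of germ cells and somatic cells, crosslinked with UV. In the IP group, RNA was precipitated with an antibody to IGF2BP3. In the size-matched input (SMInput) group, RNA of the same lysate was prepared without the antibody, and it is the background of its IP. Both kinds of library were made in 2 replicates, which gives 4 samples. The study describes the replicates as biological, and the labels number them and do not name the animals behind them.

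ADAM proteins are membrane proteins with a disintegrin and a metalloprotease domain, and they act in cell adhesion and in the shedding of proteins from the cell surface. Many mouse members are made in testicular germ cells and reach the sperm surface, where several form complexes needed for sperm to pass from the uterus into the oviduct. Other members, such as ADAM10 and ADAM17, are expressed in many tissues and cut membrane proteins including Notch and the precursor of tumour necrosis factor.

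For each cluster, the tables give the log2 fold change of IP over SMInput reads, scaled to the libraries, and a −log10 P value of this comparison. A cluster was called significant when both were at least 2. The read numbers behind the clusters were worked out from these values together. They gave totals of 5133438 IP and 8706391 SMInput reads for replicate 1, beside 4637612 IP and 16696122 SMInput reads for replicate 2. The SMInput library of replicate 2 was thus the deepest of the 4. A single pair of read numbers was found for 631 of the 639 ADAM clusters of replicate 1 with a −log10 P value above 0, for 484 of 491 in replicate 2, and for all significant ADAM clusters. Another 49 and 25 ADAM clusters were listed at a −log10 P value of 0 and have no read numbers. Intervals below are exact Clopper-Pearson 95% intervals of these reads turned into log2 fold changes, and they cover counting error only.

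IGF2BP3 clusters were significant in most ADAM genes that had any cluster. In replicate 1, 54 of the 688 ADAM clusters were significant (7.85%), beside 4.92% of all clusters of that replicate. In replicate 2, 77 of the 516 were significant (14.9%), beside 13.2% of all clusters. Per gene, 19 of the 29 ADAM genes with a cluster in replicate 1 had a significant one (65.5%), beside 40.8% of all protein-coding genes with a cluster. The count was 20 of 28 in replicate 2 (71.4%), beside 62.8%. Of the 26 ADAM genes with clusters in both replicates, 16 were significant in both (61.5%), beside 39.1% of all such genes. These shares were not tested against each other, nor was the part that the number of clusters of a gene has in them. In bulk testes, fewer cells of a type and less RNA per cell cannot be told apart.

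The 16 genes were Adam1a, Adam1b, Adam2, Adam3, Adam4, Adam5, Adam6a, Adam6b, Adam10, Adam17, Adam18, Adam20, Adam24, Adam29, Adam32 and Adam39. Adam21, Adam22 and Adam25 were significant in replicate 1 alone, and Adam9, Adam26a, Adam26b and Adam34 in replicate 2 alone. Adam8, Adam11, Adam12, Adam15, Adam19, Adam23, Adam28 and Adam30 had clusters but no significant one. Adam7 and Adam33 had no cluster. By role, all 20 ADAM genes known for testis or sperm had clusters in both replicates and 14 of them were significant in both (70%), beside the 39.1% of all such genes. Of the 11 members known from somatic tissues, called somatic here, some of them broadly expressed, 6 had clusters in both replicates and 2 of these were significant in both (33.3%), namely Adam10 and Adam17. At thresholds of 3 for both values, 6 of the 26 genes were significant in both replicates (23.1%), beside 9.43% of all protein-coding genes with clusters in both, and all 6 were sperm genes (Adam1b, Adam2, Adam4, Adam20, Adam24 and Adam32). With Benjamini-Hochberg adjusted P under 0.05 over all clusters of a replicate, 11 of the 26 stayed significant in both (42.3%), beside 28.2% of all such genes, while Adam6a, Adam6b, Adam17, Adam29 and Adam39 lost their call.

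**Figure D1:**
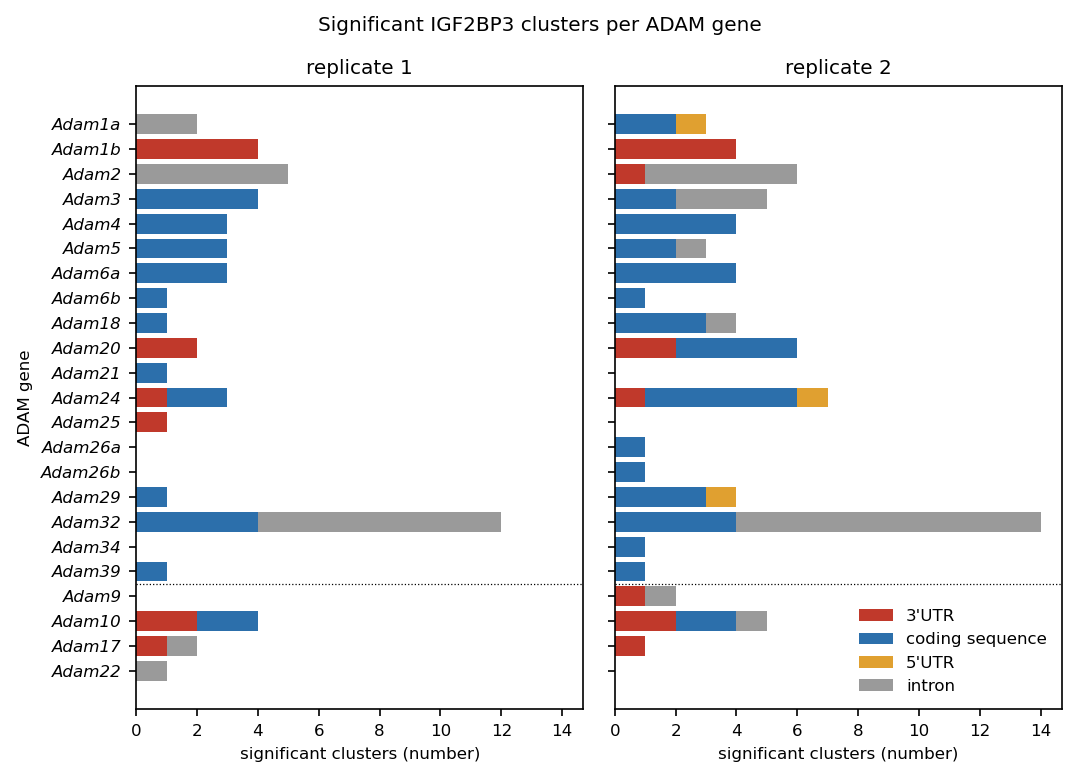
Bars show the number of significant clusters per ADAM gene (x axis) in replicate 1 (left) and replicate 2 (right), coloured by the part of the gene that holds the cluster centre, with sperm genes above the dotted line and somatic genes below it. Adam32 has the highest bars, 12 and 14, most of them intron clusters, while the 4 clusters of Adam1b in each replicate are all in the 3'UTR.

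Within the genes, ADAM clusters were spread over coding sequence, 3'UTR and introns. In coding sequence, 26 of 257 ADAM clusters were significant in replicate 1 (10.1%), beside 5.29% of coding sequence clusters of all protein-coding genes, and 40 of 263 in replicate 2 (15.2%), beside 7.98%. In 3'UTRs the counts were 11 of 57 (19.3%), beside 19.4%, and 12 of 42 (28.6%), beside 34.5%. In introns they were 17 of 359 (4.74%), beside 2.06%, and 22 of 200 (11%), beside 10.9%. The share of significant ADAM clusters was thus above the background in coding sequence in both replicates. In 3'UTRs it was near the background in replicate 1 and below it in replicate 2, and in introns it was above it in replicate 1 and near it in replicate 2, with no test of these differences. In 5'UTRs, 0 of 15 ADAM clusters were significant in replicate 1, beside 5.1%, and 3 of 11 in replicate 2 (27.3%), beside 8.59%. Over all exonic clusters the median log2 fold change of ADAM genes was 1.25 and 1.26 in replicates 1 and 2, beside 1.08 and 1.18 for all protein-coding genes.

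The calls rested on few reads. The median number of IP reads of a significant ADAM cluster was 11 (replicate 1) and 8 (replicate 2), beside 13 and 8 for all significant clusters with recovered reads. Under 10 IP reads were found in 21 (38.9%) and 51 (66.2%) of the ADAM clusters, beside 29.1% and 62%. In 14 and 15 of them (25.9% and 19.5%) the SMInput had 1 read, beside 22.9% and 25.9%. Low read numbers were thus general to these libraries. The ADAM share was the larger one for under 10 IP reads in both replicates. For a single SMInput read it was larger in replicate 1 and smaller in replicate 2. These differences were not tested. The lower interval bound of the log2 fold change was at least 1 for 25 of the 54 clusters and 33 of the 77 (46.3% and 42.9%), beside 47.3% and 43.5%, and at least 2 for 5 and 8 (9.26% and 10.4%), beside 9.87% and 8.66%. These 5 and 8 clusters lay in Adam1b and Adam20 in replicate 1, and in Adam1b, Adam20, Adam24 and Adam32 in replicate 2. With a minimum of 10 IP reads, 33 and 26 ADAM clusters remained significant, in 13 genes of each replicate and in 10 of the 26 genes in both (38.5%), beside 22.1% of all protein-coding genes with clusters in both. The share of all genes in each replicate at this minimum was not worked out.

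Significant clusters of the replicates overlapped by at least 1 base at 7 sites in 5 ADAM genes, which is 5 of the 26 genes with clusters in both replicates, beside 16.6% of all protein-coding genes with clusters in both. Of the significant ADAM clusters, 11 of 54 (20.4%) and 11 of 77 (14.3%) met a significant cluster of the other replicate, beside 32.9% and 18.4% of the significant clusters of all protein-coding genes. For 26 of the 54 and 43 of the 77 (48.1% and 55.8%), the other replicate listed no cluster at that place at all, beside 46.7% and 58.4%. Of the 16 ADAM genes significant in both replicates, 11 were therefore called from different places (68.8%), beside 57.5% of all protein-coding genes significant in both. Calls at different places were thus common over all genes, and the difference between the ADAM genes and all genes was not tested. A test added after the data were seen took the reads of overlapping clusters with the replicate as a block. It called such an overlap in 12 ADAM genes (46.2%), beside 37% of all genes with clusters in both replicates. Among them were Adam2, Adam4, Adam6a, Adam18 and Adam29, which are counted above as called from different places. The test takes the reads of both replicates together, so a call can rest mainly on 1 replicate. In the 3'UTR of Adam2, values of 0.76 and 3.29 in replicates 1 and 2 were called at a common value of 2.08. These calls therefore do not show that both replicates were high at a place. Where exonic ADAM clusters of both replicates overlapped, in 279 pairs from 21 genes, both log2 fold changes were above 0 in 246 pairs (88.2%), beside 76.8% of such pairs over all protein-coding genes. Pearson's r was 0.704 and Spearman's rho 0.563 across the ADAM pairs, beside 0.652 and 0.605 across all pairs, and the pairs share libraries and genes and are not independent.

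**Figure D2:**
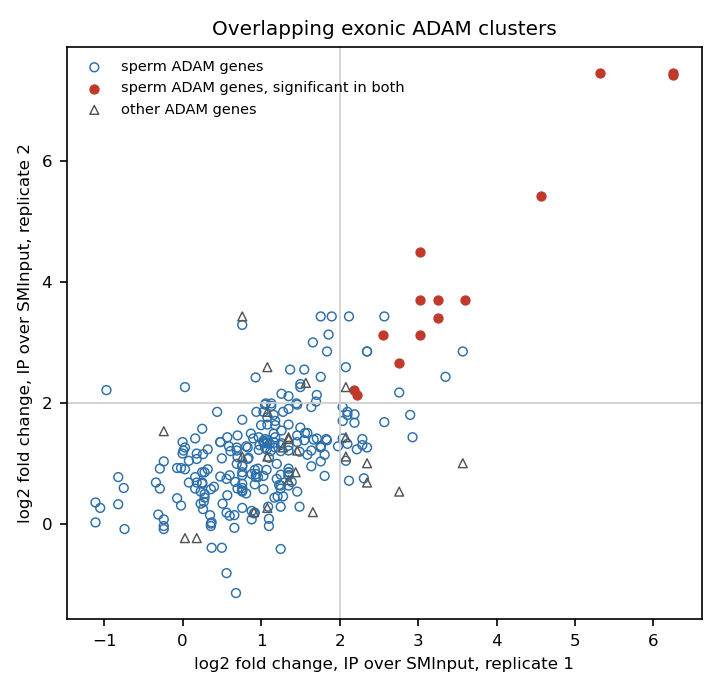
Each point is a pair of overlapping exonic ADAM clusters, with its log2 fold change of IP over SMInput in replicate 1 on the x axis and in replicate 2 on the y axis, as circles for sperm genes and triangles for somatic genes, and grey lines at the threshold of 2. Of the 279 pairs, 14 (filled) are significant in both replicates (5.02%, beside 8.08% of all such pairs). All 14 are in sperm genes, as are most of the 279 pairs. A cluster can be part of several pairs, as in Adam1b and Adam20.

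Of the sites where significant ADAM clusters of both replicates overlapped, those with the largest smaller log2 fold change lay at the 3' ends of 3 germ cell genes. Clusters significant in a single replicate reached 4.08 in Adam4 and 4.66 in Adam6a, above the values of some of these sites. The first was Adam20, a testis-expressed member with 2 exons on the plus strand of chromosome 8. Its site, chr8:40797176-40797252, lay in the 3'UTR, which is 166 bases long, and ended 51 bases before the annotated end of the gene. In replicate 1, the cluster with the highest value had a log2 fold change of 6.25 (interval 3.70 to 11.59) from 45 IP reads and 1 SMInput read, and a −log10 P value of 17.9. In replicate 2 the value was 7.46 (4.92 to 12.80), from 49 IP reads and 1 SMInput read, with a −log10 P value of 30.9. Each replicate split the site into 2 adjoining clusters, and those of the other part were at 5.32 and 7.43. Both replicates were thus high at the same bases, with wide intervals because the SMInput had 1 or 2 reads. The 4111 sites shared by both replicates over all protein-coding genes were ranked by their smaller log2 fold change. This is the smaller of the highest cluster values of the replicates at a site. Of the sites, 3 were as high as Adam20 or higher, itself included. The highest clusters need not cover the same bases. In replicate 1 that of Adam20 was the short cluster chr8:40797176-40797183, and those of Adam1b did not overlap between replicates. The other significant clusters of Adam20, 4 in coding sequence, were found in replicate 2 alone, at log2 fold changes from 2.53 to 3.43.

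The next was Adam24, which encodes testase 1, a sperm surface protease. The site chr8:40682118-40682200 lay in its 3'UTR of 419 bases and reached 1 base past the annotated end of the gene. The log2 fold change was 4.57 (1.85 to 9.97) in replicate 1, from 14 IP reads and 1 SMInput read, and 5.43 (2.68 to 10.85) in replicate 2, from 12 IP reads and 1 SMInput read. Of the 4111 shared sites, 102 were as high or higher. The counts for the other ADAM sites were 419 for the 3' end of Adam1b, 1776 for the coding site of Adam24, 1838 and 3557 for the intron and coding sites of Adam32, and 3283 for Adam3. The median of the smaller log2 fold change was 2.66 over the 7 ADAM sites, beside 2.53 over all shared sites. It was 6.25, 4.57 and 3.60 at the 3' ends of Adam20, Adam24 and Adam1b, and from 2.13 to 2.66 at the others. The replicate 1 interval of the Adam24 3' end (1.85 to 9.97) includes the median of all sites. The ranks take no account of intervals, which were wide where the SMInput had 1 read. Adam24 also had a shared site in coding sequence, chr8:40681361-40681418 in exon 2, with 12 bases under both clusters. There the values were 2.76 (0.44 to 6.04; 8 IP and 2 SMInput reads) and 2.66 (0.68 to 4.88; 7 and 4 reads). This site was therefore much less certain than the one at the 3' end. In all, Adam24 had 3 significant clusters in replicate 1 and 7 in replicate 2.

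The deepest site was in Adam1b, which encodes the fertilin alpha subunit that pairs with ADAM2 on sperm. Adam1b has 1 exon, on the minus strand of chromosome 5, and a 3'UTR of 462 bases. The site chr5:121500169-121500579 covered most of this 3'UTR and the last bases of the coding sequence, with 4 significant clusters in each replicate. In replicate 1 they had log2 fold changes of 2.55, 3.02, 3.60 and 3.25, from the lower to the higher coordinate, from 31, 115, 43 and 73 IP reads. In replicate 2 they had 3.13, 4.49, 3.71 and 3.40, from 78, 106, 58 and 44 IP reads. The SMInput had 24 and 17 reads under the clusters with the most IP reads, whose intervals were 2.38 to 3.72 and 3.74 to 5.32. A further cluster inside the stretch in replicate 1 missed the threshold at 1.86. The signal was thus raised along most of the 3'UTR in both replicates. The interval of the deepest cluster of replicate 2 lay just above that of replicate 1, but their clusters differ in extent. Outside the stretch, the coding sequence of Adam1b held 3 clusters in replicate 1 and 1 in replicate 2, none of them significant, at log2 fold changes from 1.46 to 1.97.

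**Figure D3:**
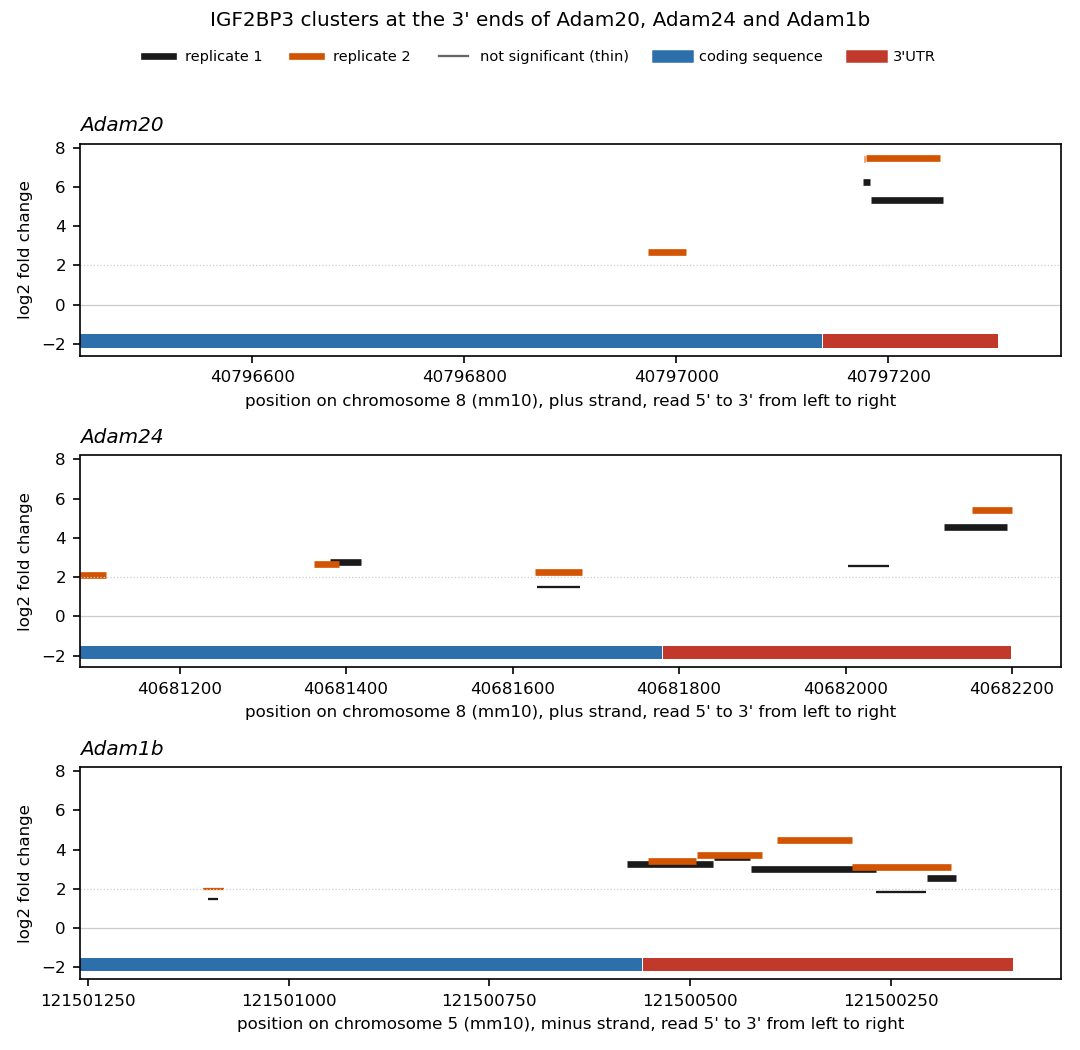
Horizontal lines mark clusters at the 3' ends of Adam20, Adam24 and Adam1b by position on the chromosome (x axis, mm10) and log2 fold change of IP over SMInput (y axis), in black for replicate 1 and orange for replicate 2, thick where significant, and the bar below marks coding sequence and 3'UTR. In each gene significant lines of both replicates overlap in the 3'UTR, with values up to 6.25 and 7.46 in Adam20.

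To show what these 6 sites look like as RNA, the reference sequence of mm10 (GRCm38) is given 5' to 3' on the strand of the gene. For the 3'UTR sites and the intron site, 30 bases around the middle of the longest unbroken stretch under significant clusters of both replicates are shown, and for the coding sites the whole site. Capitals would mark the letters GGAC, GAACA or AAACC, and none of these occurred in the stretches shown. The Adam20 stretch is chr8:40797199-40797228 (plus strand, 3'UTR), and that of Adam24 is chr8:40682159-40682188 (plus strand, 3'UTR). The Adam1b stretch is chr5:121500467-121500496 (minus strand, 3'UTR), which lies outside the clusters with the most IP reads. The coding site of Adam24 is chr8:40681361-40681418 (plus strand, exon 2) and that of Adam3 is chr8:24703750-24703850 (minus strand, exon 12). The Adam32 stretch is chr8:24869325-24869354 (minus strand, intron).
Adam20 3' end: catgttttaaaattaactggcacaaagttc
Adam24 3' end: gtaacttcttacttttctaattaaaaactt
Adam1b 3' end: agcagaagctgtgggaagctgccactctca
Adam24 CDS: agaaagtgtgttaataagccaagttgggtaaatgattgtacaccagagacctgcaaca
Adam3 CDS: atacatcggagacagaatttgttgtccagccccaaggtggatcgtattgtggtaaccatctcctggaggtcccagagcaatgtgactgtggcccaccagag
Adam32 intron: gtgtgtgtgtgtgtgtgtccagatgtgaca
The stretches differed widely in base composition. The share of G and C was 20% in the Adam24 3' end, 30% in Adam20 and 56.7% in Adam1b, and the Adam32 stretch opens with a GT repeat.

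The remaining members of the ADAM2 and ADAM3 complexes, which sperm need to enter the oviduct, were read mainly in introns or coding sequence. Adam2, the fertilin beta subunit, had 5 significant clusters in replicate 1, all in introns, at log2 fold changes from 2.24 to 3.85, and 6 in replicate 2 from 3.02 to 4.17. Of these 6, 5 were in introns and 1 in the 3'UTR, the latter at 3.29 from 19 IP and 7 SMInput reads. None of the significant clusters of Adam2 overlapped between replicates, and its exonic clusters had a median log2 fold change of 0.29 in replicate 1 and 0.68 in replicate 2, the lowest of the sperm genes in both replicates. Adam3 encodes the sperm protein that many infertile mouse mutants fail to place on the sperm surface. It had 4 significant clusters in coding sequence in replicate 1, between 2.04 and 2.31, and 5 in replicate 2, 2 in coding sequence and 3 in introns. They met at chr8:24703750-24703850, where the values were 2.19 (1.24 to 3.23; 35 IP and 13 SMInput reads) and 2.22 (1.40 to 3.05; 31 and 24 reads). Values at this site were near the threshold but rested on more reads than most calls in the family.

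Adam1a encodes the other fertilin alpha subunit, which acts in the endoplasmic reticulum. It had 2 significant clusters in introns in replicate 1, and in replicate 2 it had 2 in coding sequence and 1 in the 5'UTR. The highest was 3.76 from 8 IP reads and 1 SMInput read. All 5 also lay inside another protein-coding gene on the same strand, since Adam1a overlaps Mapkapk5 and Gm42878, so their reads cannot be given to Adam1a alone. Adam4, a further sperm surface member, overlaps Cox16 and Gm20498 in the same way. Its 3 significant clusters in replicate 1 lay in coding sequence at 2.76 to 4.08, and its 4 in replicate 2 at 2.72 to 3.43, the deepest with 18 IP and 9 SMInput reads. Adam6a had 3 and 4 significant clusters, all in coding sequence, at up to 2.93 and 4.66. Its near copy Adam6b had 1 in each replicate, at 2.76 from 12 IP reads and 3.85 from 4 IP reads. Adam6a and Adam6b share 29.5% and 29.6% of their runs of 50 bases, and every significant cluster of Adam6b touched such a run.

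Adam5, Adam18 and Adam32 are germ cell genes next to Adam3 on chromosome 8, and together with Adam2 and Adam3 they are the sperm members with 20 exons or more. Adam5 had 3 significant clusters in each replicate. In replicate 1 all were in coding sequence at 2.04, 2.10 and 2.29, from 51, 43 and 46 IP reads, and in replicate 2 those in coding sequence were at 2.42 and 2.55, from 46 and 52 IP reads, with 1 more in an intron. Those in coding sequence were deep clusters close to the threshold. Significant clusters of Adam5 did not overlap between replicates. The coding sequence ones overlapped clusters of the other replicate that were not significant, at log2 fold changes from 0.93 to 1.85. Adam18 had 1 significant cluster in replicate 1, at 2.12 in coding sequence, and 4 in replicate 2, the deepest of them with 20 IP and 9 SMInput reads in coding sequence.

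Adam32 had more significant clusters than any other member, 12 of its 150 clusters in replicate 1 and 14 of 121 in replicate 2. Of these, 8 and 10 were in introns and 4 in each replicate in coding sequence. Replicates met at an intron site, chr8:24869295-24869403, with values of 2.64 (1.29 to 4.23; 22 IP and 6 SMInput reads) and 3.96 (2.10 to 6.42; 13 and 3 reads). They also met in exon 9, where the values were 2.22 and 2.13. The other significant clusters of Adam32 were found in a single replicate.

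Exonic clusters of the sperm genes with few exons had higher medians than those of the sperm genes with 20 exons or more. The 20 sperm members were grouped after the values were seen, by the exons of the transcript with the longest coding sequence: 6 genes with 1 exon (Adam1a, Adam1b, Adam4, Adam6a, Adam6b and Adam30), 9 with 2 to 4 (Adam20, Adam21, Adam24, Adam25, Adam26a, Adam26b, Adam29, Adam34 and Adam39) and 5 with 20 to 22. The median log2 fold change of exonic clusters was 1.76 and 2.17 in the genes with 1 exon, 2.35 and 2.79 in those with 2 to 4, and 0.97 and 1.03 in those with 20 or more. The median IP reads of an exonic cluster with recovered reads were 9 and 6, 6 and 5.5, and 23 and 19 in the same order. Medians of single genes ran from 0.78 to 2.5 and 1.7 to 3.4 in the genes with 1 exon. In those with 20 or more they ran from 0.29 to 1.11 and 0.68 to 1.22. The value of 0.78 was that of Adam1a, which overlaps other genes and held 12 of the 42 exonic clusters of its group in replicate 1. Clusters of the genes with 1 to 4 exons thus had higher fold changes from fewer reads in both replicates. The part of read number in this was not tested.

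Among the other sperm genes with few exons, Adam29 had 1 significant cluster in coding sequence in replicate 1, at 3.57 from 7 IP reads and 1 SMInput read. In replicate 2 it had 4, from 3.17 to 3.85 with 4 to 6 IP reads. Adam39, which encodes a testase, had 1 in each replicate, at 3.57 and 3.85, from 7 and 4 IP reads over 1 SMInput read, at different places. With so few reads these are calls at the edge of what could be detected. Adam21 had 1 significant cluster at 2.22 and Adam25, testase 2, had 1 at 2.76 in its 3'UTR, both in replicate 1. Adam26a, Adam26b and Adam34 had 1 each in coding sequence in replicate 2, at 2.72, 2.85 and 2.26. Adam30 had 4 and 3 clusters, with log2 fold changes of at most 2.35 and 2.17 and −log10 P values of at most 1.95 and 1.93, so that none passed.

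Several of the genes with few exons are copies of each other. Runs of 50 bases that also occur in transcripts of other genes made up 34.7% of Adam20, 34.2% of Adam25, 36.1% of Adam39, 36.4% of Adam26a, 36.7% of Adam26b, 27.3% of Adam34, 32.4% of Adam1b, 51.9% of Adam1a and 17.4% of Adam4. Such runs touched 5 of the 37 significant exonic ADAM clusters in replicate 1, in Adam4, Adam6a and Adam6b. In replicate 2 they touched 11 of 55, in Adam4, Adam6a, Adam6b, Adam20, Adam26a, Adam34 and Adam39. Reads in these stretches could belong to either copy. None of the exonic clusters of the 7 shared sites was touched, so the values at the 3' ends of Adam20 and Adam1b came from bases outside such runs. The runs were taken from transcripts, so the intron site of Adam32 was not checked in this way.

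Among the somatic members, Adam10 and Adam17 had significant clusters in both replicates. Adam10, the alpha-secretase that also cuts Notch, had 4 in replicate 1, 2 in the 3'UTR at 3.93 and 3.22 and 2 in coding sequence at 2.35 and 3.57. In replicate 2 it had 5, of which 2 were in the 3'UTR at 3.43 and 2.02, 2 in coding sequence and 1 in an intron. All were small, with 4 to 12 IP reads, and none overlapped between replicates. Adam17, which sheds the precursor of tumour necrosis factor, had 1 in the 3'UTR at 2.93 from 9 IP and 2 SMInput reads and 1 in an intron in replicate 1, and 1 in the 3'UTR in replicate 2 at 2.43, from 6 IP and 4 SMInput reads. After Benjamini-Hochberg adjustment over all clusters of each replicate, Adam10 and not Adam17 was significant in both.

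Adam9 had 2 significant clusters in replicate 2, 1 in the 3'UTR at 2.50 from 11 IP and 7 SMInput reads, and none among its 41 clusters of replicate 1. Adam22, a neuronal member without protease activity, had 1 in an intron in replicate 1 from 8 IP reads and 1 SMInput read. Of the members with no significant cluster, Adam15 had 10 and 9 clusters with highest log2 fold changes of 2.57 and 1.53, and Adam8, known from immune cells, had 4 and 3. Adam12 and Adam23 had 2 and 4 clusters in replicate 1 alone, Adam19 had 1 there, and Adam11 had 4 in replicate 2 alone. Adam33 had none. A coding sequence cluster of Adam15 in replicate 2 passed the P threshold alone, at a log2 fold change of 1.53 and a −log10 P value of 2.07, from 12 IP and 15 SMInput reads. The lack of a significant cluster does not show that these transcripts are not bound.

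Adam7 and Adam28 are known from the epididymis, the duct that receives sperm from the testis. Adam7 had no cluster, and Adam28 had 2 intron clusters in replicate 2, with 6 IP and 2 SMInput reads in all and none significant. The other epididymal markers Crisp1, Lcn5 and Lcn8 had no cluster in either replicate. Clusters of these epididymal genes were thus few or absent, which does not give the amount of epididymal RNA in the libraries.

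Markers of the cells of the testis were read beside the ADAM genes, as reads summed over clusters with recovered reads, which leaves out clusters listed at a −log10 P value of 0. In replicates 1 and 2, these were 42 of 188 and 39 of 156 spermatocyte clusters, and 25 of 90 and 9 of 76 Sertoli cell clusters. They were 2 of 50 and 0 of 41 spermatid clusters, 5 of 59 and 4 of 57 spermatogonial clusters, and 0 of 25 Leydig cell clusters in each. The sums of different cell types are therefore not directly comparable. Clusters were found in 5 of 5 spermatid markers, with 5786 IP and 5132 SMInput reads in replicate 1 and 4975 and 9568 in replicate 2, most SMInput reads in Prm2, and Acrv1 alone was significant. The 3 spermatocyte markers had 2251 and 2021 reads, and 1727 and 2960, most in Piwil1, with Sycp1 significant in replicate 2. The 3 spermatogonial markers had 339 and 227, and 350 and 426, most in Uchl1, with Zbtb16 and Kit significant in both replicates. The 3 Sertoli cell markers had 454 and 390, and 405 and 591, most in Wt1, which was significant in replicate 2. The 3 Leydig cell markers had 3247 and 2600, and 2796 and 4167, most in Insl3, with Star significant in replicate 1 and Insl3 in replicate 2. The 3 blood markers had 7 clusters in replicate 1 and 2 in replicate 2, none of them significant. The sums were 16 and 4, and 8 and 4, all from Ptprc, and they do not give the amount of blood RNA. The 3 globin clusters of Hbb-bs and Hba-a1 in replicate 1 were listed at 0 and have no read numbers, at log2 fold changes from −5.37 to −3.12, so that their RNA was far higher in the SMInput than in the IP. The part of each cell type in the ADAM clusters was not tested.

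Genes that act on sperm ADAM proteins or on the same step of sperm migration also had clusters. Of 13 such genes, 12 had clusters in both replicates, and 5 of these were significant in both (41.7%), beside 39.1% of all protein-coding genes with clusters in both. In all 5, significant clusters overlapped between replicates (41.7%), beside 16.6%. With both thresholds at 3, 2 of the 12 genes were significant in both replicates, beside 9.43% of all such genes. With the log2 threshold at 1, 10 of the 12 were, beside 45.2%. Pmis2, a sperm membrane protein, had the highest values, 5.19 from 43 IP and 2 SMInput reads and 4.81 from 86 and 11 reads, and 3 of its 4 significant clusters in replicate 1 and its only one in replicate 2 lay in the 3'UTR. Clgn, the chaperone calmegin, had 5 and 3 significant clusters at up to 3.15 and 2.78, and Prss37, a protease-like protein, had 4 and 10 at up to 3.93 and 3.53. Cmtm2a and Cmtm2b, membrane proteins with a MARVEL domain, had 7 and 10, and 3 and 3, at up to 2.88 and 2.93, and 2.35 and 2.59. As in Adam20 and Adam1b, each of these genes had at least 1 base under significant clusters of both replicates. Calr3, Pdilt, Tex101, Ace and Tpst2 were significant in 1 replicate, Ly6k and Pcsk4 in neither, and Rnase10 had no cluster.

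Of 10 partners of ADAM10 and ADAM17, 8 had clusters in both replicates. Of these, 3 were significant in both (37.5%), beside 39.1% of all such genes, with 0 overlapping, beside 16.6%. Timp3, an inhibitor of ADAM17, had 1 in each replicate in the 3'UTR, at 2.93 from 9 IP and 2 SMInput reads and at 4.17 from 5 and 1. Tspan5 and Tspan14, tetraspanins that bind ADAM10, had 4 and 12, and 1 and 1, at up to 3.57 and 4.43, and 2.25 and 3.85. Tspan33 was significant in replicate 2 alone, and Rhbdf1, Rhbdf2, Tspan10, Tspan15, Tspan17 and Furin in neither. After Benjamini-Hochberg adjustment 0 of the 8 were significant in both replicates, beside 28.2% of all such genes.

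Sequence motifs were counted on the strand of the cluster in windows of 100 bases around the centre of each significant ADAM cluster, each motif on its own. GGAC, which holds the sequence that most m6A sites share, was in 13 of 54 windows in replicate 1 (24.1%) and 18 of 77 in replicate 2 (23.4%), beside 26.1% and 24% of the windows of all significant clusters. GAACA was in 9 and 9 (16.7% and 11.7%), beside 8.86% and 8.38%. AAACC was in 4 and 4 (7.41% and 5.19%), beside 8.66% and 8.13%. Shares of GGAC and AAACC in the ADAM windows were at or below those of all significant clusters, that of GAACA was above them in both replicates, and neither difference was tested. A match is only a run of letters and does not show that a protein binds there.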

How the data were processed

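The deposited −log10 P values and log2 values were made by the authors. Reads were trimmed with cutadapt, freed of ribosomal RNA with Bowtie2, aligned to mm10 with STAR and collapsed by unique molecular identifiers. Clusters were called with Clipper on read 2, and clusters were normalised by the authors against the SMInput reads. The methods name Fisher's exact test and the chi-square test with Yates' correction for reads over gene regions. The same tests, with the former at low read numbers, returned nearly all P values of the clusters from whole read numbers. The deposited −log10 values run from 0 to 400. Both thresholds of 2 follow the study's methods.

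Clusters were given to genes by their centre, and to regions by GENCODE M21 basic transcripts in the order 3'UTR, coding sequence, 5'UTR, intron. Library totals were the whole numbers for which listed fold changes and P values return whole read numbers, and all 200 clusters tried for this gave a solution. Read numbers, intervals and counts were computed with Python 3.11.15, NumPy 2.4.6, pandas 2.3.3 and SciPy 1.17.1, sequences were read with samtools 1.23.1 and pysam 0.24.0, and figures were drawn with matplotlib 3.10.9. The recovery of reads and the regions were checked on simulated data. All clusters lay within the chromosome lengths of GRCm38.

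Members and lists were chosen with earlier results of these data known. Genes significant in both replicates are named with their values, and of the 7 shared sites the 6 with the largest smaller log2 fold change are given in full. No test between ADAM and other genes was made. Alternatives covered thresholds, adjustment of P, gene assignment, read minimum, overlap and each replicate alone. Protein sequences were not analysed here, and Adam34l of the sperm list was not matched.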

Additional observations from a re-analysis of the deposited data

How the results depend on the processing

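Of 77 alternatives listed before the tables were read, 48 left the result within its limits, which were 1.5 times for counts, the SD of the medians of both replicates (0.011) for medians and the interval of the reads for sites. Only the medians could change sign, and none did, while counts and site values have no direction to reverse. Not counted are 8 site values with a single cluster, the added test below, and the counts of a replicate alone, which are another quantity. Assignment by any overlap with the gene, exons alone, clusters of several genes left out, joined clusters and an overlap of 50% of the shorter cluster changed no count by over 1.5 times.

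For counts of a single replicate at changed thresholds or a read minimum, shares of all clusters or genes were not worked out. These counts therefore cannot be set against a background. With both thresholds at 3, there were 11 and 18 significant ADAM clusters in replicates 1 and 2, in 7 and 9 genes. Of the genes, 6 were significant in both replicates (6 sperm and 0 somatic genes), and 3 had overlapping clusters (Adam1b, Adam20 and Adam24; 11.5% of those with clusters in both replicates, beside 4.91% of all such genes). Of the 12 ADAM3 maturation and 8 sheddase partner genes with clusters in both, 2 and 0 were significant in both, beside 9.43% of all such genes. With the log2 threshold at 1, there were 98 and 143 clusters, 8 genes had overlapping clusters (30.8%, beside 25.6%), and 10 of the 12 ADAM3 maturation genes were significant in both replicates, beside 45.2% of all such genes. With adjusted P under 0.05, 31 and 67 clusters were left, and 11 genes were significant in both replicates, 10 sperm genes and 1 somatic gene, with 0 of the 8 sheddase partner genes, beside 28.2% of all such genes.

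With at least 10 IP reads there were 33 and 26 clusters. Then 13 genes were significant in replicate 2, and 10 in both replicates, 9 sperm genes and 1 somatic gene. The exonic median was 1.24 and 1.22 with this minimum, which also leaves out clusters listed at 0. It was 1.88 and 1.85 with 1 value per gene, and 1.35 and 1.33 without the member with most exonic clusters.

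Overlap needs both replicates. With either replicate alone, 19 to 20 genes had a significant cluster. Each deposited value is already paired, as it compares an IP with the SMInput of its own replicate. A test of both replicates in 1 fit was added after the data were seen. It took the reads of overlapping clusters with the replicate as a block (exact test stratified by replicate, with the same thresholds). Then 12 genes had a called overlap, the 5 with overlapping significant clusters (Adam1b, Adam3, Adam20, Adam24 and Adam32) and Adam2, Adam4, Adam6a, Adam9, Adam18, Adam21 and Adam29 (46.2%, beside 37% of all genes with clusters in both replicates). Of the 276 pairs with reads, 1 had the same bounds in both replicates, so the reads of a pair come from partly different bases. The test needs no significant cluster in each replicate, so a call can rest mainly on 1 of them. The SMInput had 1 read in 14 and 15 of the significant ADAM clusters.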
